A study of Homo sapiens with 6 samples.

Results

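The TET dioxygenases and DNA methyltransferases described here are 6 genes, TET1, TET2, TET3, DNMT1, DNMT3A and DNMT3B, which were taken by symbol from the 21776 genes of the count table. All 6 passed the filter on low counts, as did 14255 genes of the table. The RNA came from SCC25, an established line of human oral squamous cell carcinoma cells without genetic modification (labelled WT). Hypoxia libraries (3) came from cells held in a tri-gas incubator at 1% O2, 5% CO2 and balanced N2, and normoxia libraries (3) from cells in a humidified incubator with 95% air and 5% CO2, both for 12 h. The sample titles name SCC25 and the headers of the counts only hnscc, whereas the study's text names another oral line, SCC9, for this experiment. The labels do not say whether the libraries of a condition came from separate cultures, so that p-values measure the spread between these libraries, which may be technical. Total counts lay between 29637189 and 37278703 per library.

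The libraries were first set against their labels. All 6 hypoxia response genes examined (CA9, NDRG1, VEGFA, SLC2A1, PDK1 and ADM) were higher in each hypoxia library than in each normoxia library. Normoxia replicate 3 stood apart from the other normoxia libraries. NDRG1 was at 409 CPM there (CPM, read counts scaled by the TMM-adjusted library total) against 163 and 140 CPM in normoxia replicates 1 and 2, and CA9 was at 67.7 against 32.2 and 27.3 CPM. Results for the 6 genes are therefore also given without this library. Of 12 squamous epithelial markers, 11 were measurable, among them TP63 (68.3 ± 3.56 CPM under hypoxia and 62.7 ± 17.1 CPM under normoxia, SD, n = 3), the transcription factor of basal epithelium. KRT14, a basal keratin, had no count in 5 libraries and 1 count in the other, so this defining marker was absent.

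Cytosine methylation in CpG dinucleotides is written by DNA methyltransferases. DNMT1 copies the mark onto the new strand after replication, while DNMT3A and DNMT3B place it on unmethylated DNA. TET enzymes oxidize 5-methylcytosine to 5-hydroxymethylcytosine and further forms, which base excision repair can replace by cytosine. Like the prolyl hydroxylases that mark HIF for degradation, the TET enzymes need oxygen, iron and 2-oxoglutarate. The libraries measured RNA, and neither the proteins nor DNA methylation were measured in them.

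The members of each family moved in opposite directions. TET1, TET2 and DNMT3A were higher under hypoxia and TET3, DNMT1 and DNMT3B lower, so that 3 of the 6 genes rose and 3 fell (edgeR's quasi-likelihood test, Benjamini-Hochberg adjusted p under 0.05). This call alone says little in these data, since 77.8% of the genes tested passed it, 39.2% as higher and 38.5% as lower. All 6 also changed by at least 1.5-fold, as did 50.3% of the genes tested, 28% as higher and 22.4% as lower. No member overlapped between the conditions, and neither did 80.5% of the genes tested. In RNA from whole cultures, fewer cells that express a gene and less RNA of it per cell cannot be told apart.

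**Figure D1:**
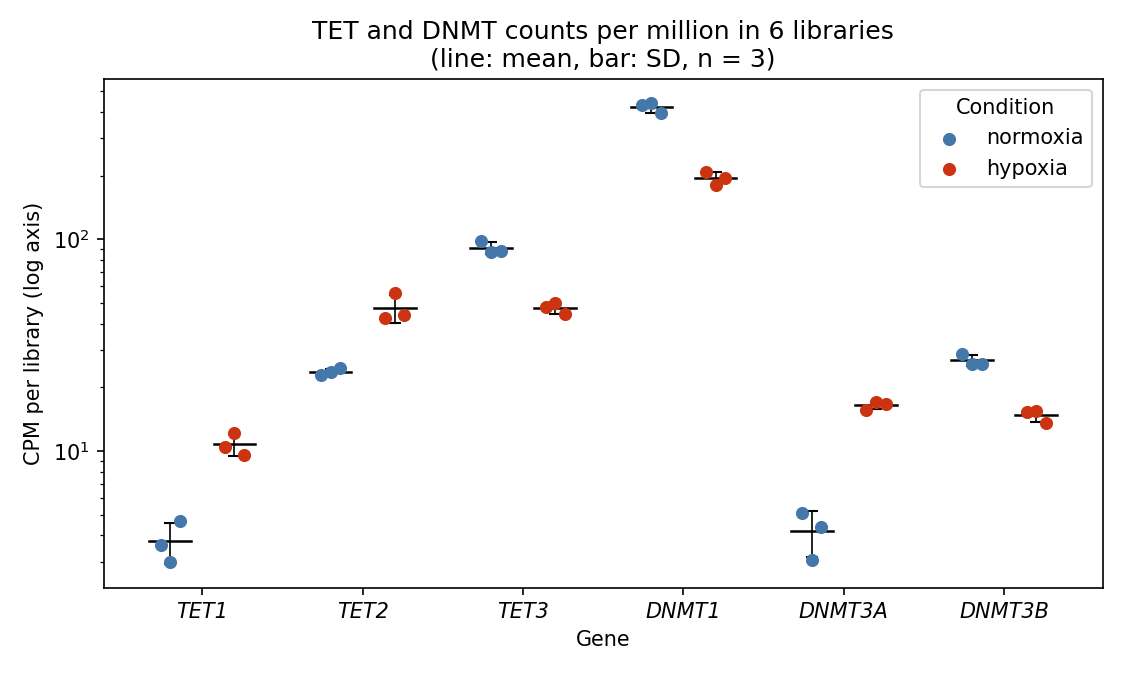
CPM of each gene (log axis) in the 3 normoxia libraries (blue) and 3 hypoxia libraries (red), with the mean as a line and the SD as a bar. The red points lie above the blue ones for TET1, TET2 and DNMT3A and below them for TET3, DNMT1 and DNMT3B, without overlap.

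TET1, whose full-length form binds CpG-rich DNA through a CXXC domain, was the least abundant TET gene. It was at 10.5, 12.2 and 9.58 CPM in hypoxia replicates 1 to 3 and at 3.60, 3.01 and 4.66 CPM in normoxia replicates 1 to 3. The lowest hypoxia library thus lay well above the highest normoxia library. The log2-fold change was 1.52 (standard error, SE, 0.16, edgeR adjusted p = 1.40e-07), a 2.87-fold increase with a 95% interval from 2.27 to 3.63. The counts behind it were small, from 86 to 138 reads per normoxia library and 311 to 454 per hypoxia library.

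TET2, which lacks a CXXC domain of its own, was at 42.6, 55.8 and 43.9 CPM under hypoxia and at 22.9, 23.5 and 24.6 CPM under normoxia. Hypoxia replicate 2 was the highest and accounted for most of the spread of its group. The log2-fold change was 1.01 (SE 0.091, edgeR adjusted p = 1.89e-08), or 2.01-fold with an interval from 1.76 to 2.30. Without hypoxia replicate 2 it was 0.87.

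TET3 moved the other way. Its level was 48.1, 50.3 and 44.3 CPM under hypoxia and 97.7, 87.3 and 87.7 CPM under normoxia, with the libraries of each condition close together. The log2-fold change was -0.93 (SE 0.065, edgeR adjusted p = 5.52e-10), so that normoxia was 1.91-fold higher.

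DNMT1, the maintenance methyltransferase, was the most abundant of the 6 genes and was at 207, 180 and 194 CPM under hypoxia and at 430, 439 and 394 CPM under normoxia. The conditions were far apart relative to the spread within each of them. The log2-fold change was -1.12 (SE 0.060, edgeR adjusted p = 2.21e-11), or 2.17-fold higher in normoxia.

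DNMT3A, a de novo methyltransferase, showed the largest change of the 6 genes. It rose to 15.7, 17.0 and 16.6 CPM under hypoxia from 5.11, 3.08 and 4.39 CPM under normoxia. The hypoxia libraries lay close together, and the normoxia libraries varied more in proportion. The log2-fold change was 1.96 (SE 0.15, edgeR adjusted p = 1.33e-09), a 3.89-fold increase with an interval from 3.14 to 4.81. Its normoxia level rested on 190, 88 and 130 reads.

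DNMT3B, the other de novo methyltransferase, fell. It was at 15.3, 15.4 and 13.5 CPM under hypoxia and at 28.7, 25.9 and 25.8 CPM under normoxia. The log2-fold change was -0.86 (SE 0.088, edgeR adjusted p = 9.09e-08), or 1.82-fold higher in normoxia. On the CPM scale, DNMT3A and DNMT3B had similar read numbers under hypoxia, while in normoxia DNMT3B had several times those of DNMT3A.

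Among all genes tested, 10.3% had a larger change in size than DNMT3A, 16.1% than TET1, 26.3% than DNMT1, 30.5% than TET2, 33.7% than TET3 and 37.0% than DNMT3B. DNMT3A and TET1 therefore stood toward the edge of the distribution, and the other 4 genes within its flanks. The median log2-fold change was 0.072 over the 6 genes and 0.023 over all genes tested. Without normoxia replicate 3, the log2-fold changes were 1.68 for TET1, 1.02 for TET2, -0.98 for TET3, -1.18 for DNMT1, 1.97 for DNMT3A and -0.91 for DNMT3B, each in the same direction and past the threshold.

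**Figure D2:**
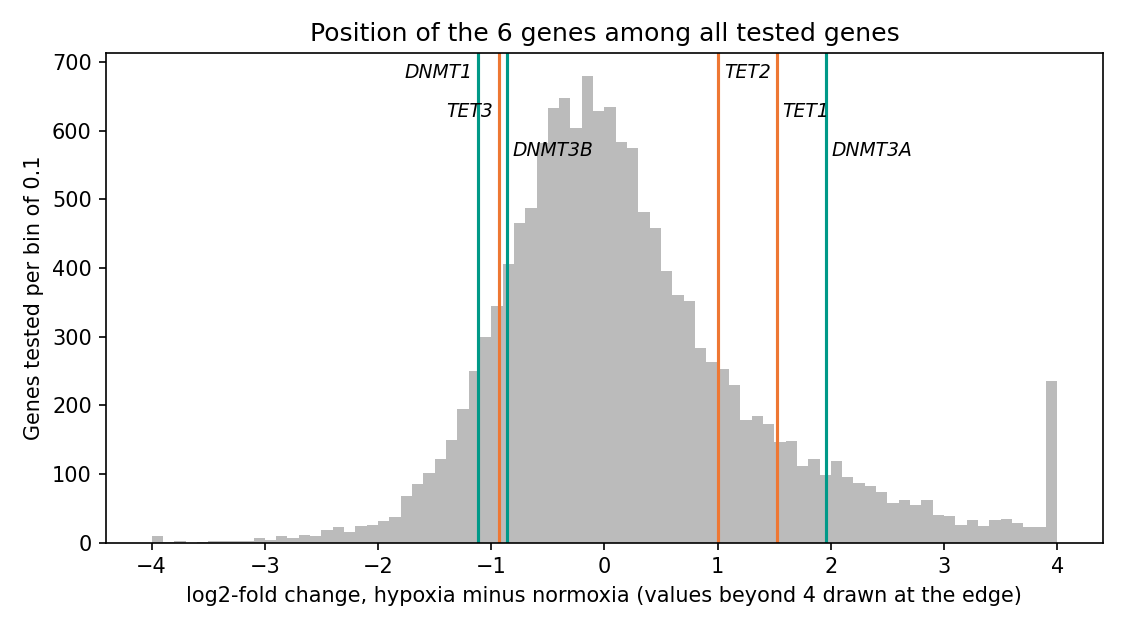
Distribution of the log2-fold change (hypoxia minus normoxia) over the 14255 genes tested, in bins of 0.1, with the TET genes as orange lines and the DNMT genes as green lines. DNMT3A at 1.96 and TET1 at 1.52 lie in the right tail, and DNMT1, TET3 and DNMT3B lie together between -1.12 and -0.86.

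Other rows of the same families were few. DNMT3L, the cofactor of de novo methylation in germ cells that has no catalytic activity, had 2 reads in hypoxia replicate 1 and 0 in the other 5 libraries, and was not tested. TRDMT1, which is related to the DNMT genes in sequence but methylates transfer RNA, was at 6.56 ± 0.614 CPM under hypoxia and 8.70 ± 0.653 CPM under normoxia (SD, n = 3), with a log2-fold change of -0.41 (SE 0.13, edgeR adjusted p = 0.00833).

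Levels of different genes were compared on the deposited FPKM, which divide by gene length. In normoxia the order was DNMT1 (78.3 ± 4.16 FPKM), TET3 (6.05 ± 0.480), DNMT3B (5.70 ± 0.432), TET2 (1.52 ± 0.0559), DNMT3A (0.340 ± 0.0888) and TET1 (0.220 ± 0.0508, all SD, n = 3). Neighbours in this order whose ranges overlapped were TET3 and DNMT3B, and DNMT3A and TET1. Under hypoxia DNMT1 stayed first at 37.3 ± 2.23 FPKM. Next came TET3 (3.27 ± 0.248), DNMT3B (3.24 ± 0.262) and TET2 (3.15 ± 0.526), which overlapped and whose order differed between libraries. DNMT3A (1.38 ± 0.0666) and TET1 (0.650 ± 0.0890 FPKM, SD, n = 3) were last in each hypoxia library. DNMT1 exceeded TET1 by 357-fold in normoxia and by 57.4-fold under hypoxia on this scale.

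The order depends on the gene lengths used. The lengths implied by the deposited values were 16852 bases for TET1 and 5283 for DNMT1, whereas all exons of GENCODE v29 cover 9288 bases of TET1 and 9796 of DNMT1. With exonic bases of GENCODE v29, TET1 (0.398) came before DNMT3A (0.344) in normoxia, and DNMT1 exceeded TET1 by 106-fold in normoxia and 17.1-fold under hypoxia.

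Within the TET family, TET3 made up 79.5%, 77.5% and 75.9% of the summed FPKM in normoxia replicates 1 to 3, and 48.8%, 43.8% and 46.6% in hypoxia replicates 1 to 3. The share of TET2 went from 19.5% ± 1.39 to 44.4% ± 2.55 and that of TET1 from 2.82% ± 0.639 to 9.18% ± 0.289 (SD, n = 3). How TET2 compared with TET3 under hypoxia depended on the gene lengths. With exonic bases of GENCODE v29 their shares were 36.3% and 49.1%, and with the longest transcript 46.5% and 41.9%. The share of TET1 was 4.37% in normoxia and 14.6% under hypoxia with exonic bases. The summed TET level overlapped between the conditions, at 7.79 ± 0.478 FPKM in normoxia and 7.07 ± 0.826 FPKM under hypoxia (SD, n = 3).

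Within the DNMT family, DNMT1 held 92.8% ± 0.506 of the sum in normoxia and 89.0% ± 0.973 under hypoxia. DNMT3A went from 0.404% ± 0.104 to 3.29% ± 0.323 and DNMT3B from 6.76% ± 0.402 to 7.73% ± 0.743 (SD, n = 3). The difference in the share of DNMT3B, 0.976 percentage points, was 0.566 without hypoxia replicate 2. With exonic bases of GENCODE v29 as lengths, the share of DNMT3A went from 0.713% to 5.64% and that of DNMT3B from 11.8% to 13.1%. The summed DNMT level was 84.3 ± 4.41 FPKM in normoxia and 41.9 ± 2.17 FPKM under hypoxia. The DNMT sum exceeded the TET sum by 10.6, 11.7 and 10.3 times in normoxia replicates 1 to 3 and by 6.58, 5.01 and 6.40 times in hypoxia replicates 1 to 3. With exonic bases of GENCODE v29 the mean ratios were 5.31 in normoxia and 3.10 under hypoxia, and from counts without lengths the difference between the conditions was -1.67 against -4.85. Shares and this ratio do not depend on how libraries are scaled. On the deposited lengths, none of the 7 values overlapped between the conditions. Each had a two-sided exact permutation p of 0.1 (also 0.1 after Benjamini-Hochberg adjustment over the 7). This is the smallest that 3 libraries against 3 allow. The share of DNMT3B came close to overlap, at 7.11% in hypoxia replicate 3 and 7.06% in normoxia replicate 1. That share did overlap with exonic bases or the longest transcript of GENCODE v29 as lengths, and from counts without lengths.

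**Figure D3:**
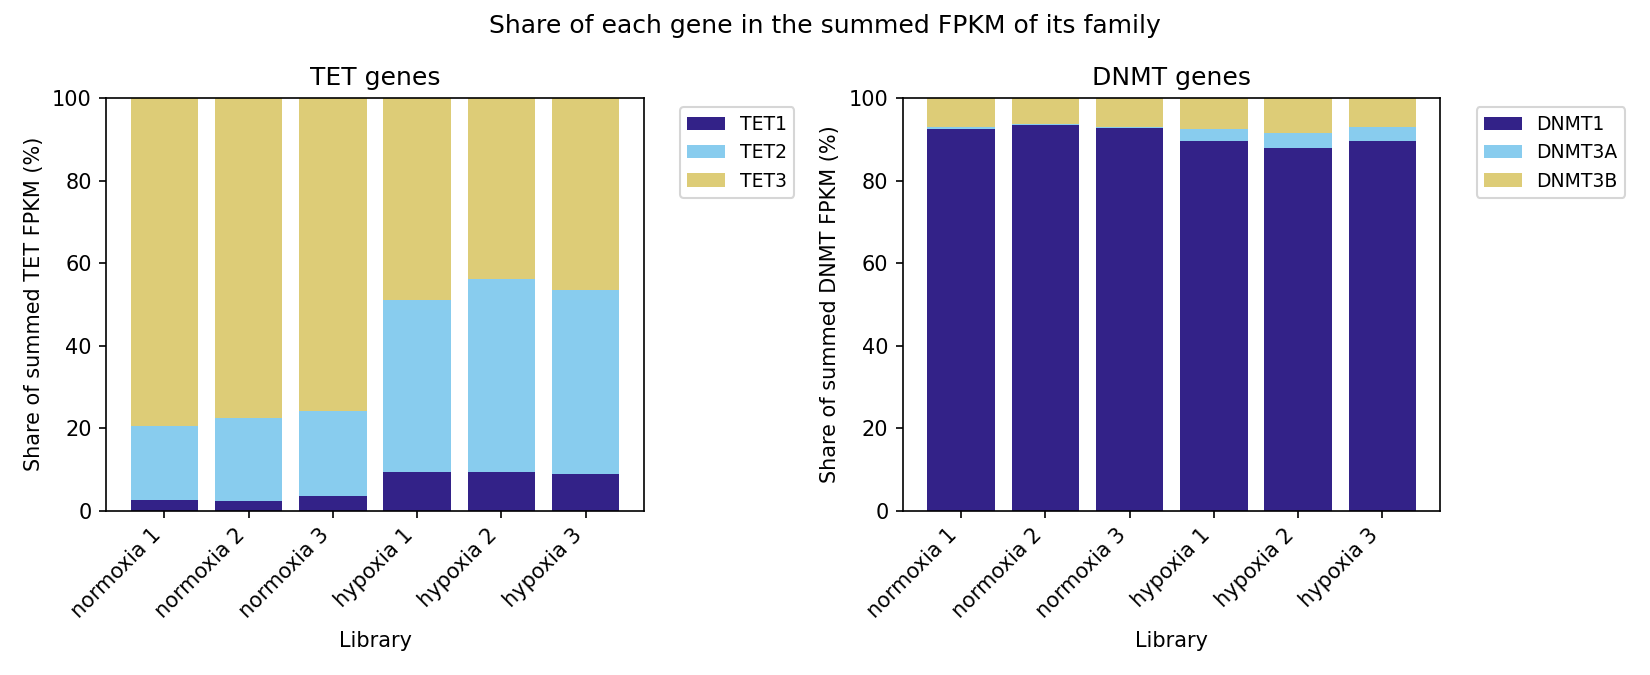
Share of each gene in the summed FPKM of the TET genes (left) and of the DNMT genes (right), in percent, with 1 stacked bar per library. TET3 fills 75.9% to 79.5% of the normoxia bars and 43.8% to 48.8% of the hypoxia bars, and DNMT1 fills most of each bar on the right.

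Hypoxia-inducible factors bind DNA at a short core, written ACGTG or GCGTG, that lies within the palindrome CACGTG at some sites. Because the members moved in both directions, windows around transcription starts (250 bases before to 50 after, 300 in all) listed by RefSeq for GRCh38.p14 were searched for these letters on both strands. All 6 genes had a window, with 15 starts in all. Of 35116 such windows in the table, 48.4% held ACGTG or GCGTG, 21.4% ACGTG, 36.5% GCGTG and 7.26% CACGTG, which counts as ACGTG on each strand. The letters were present at 2 of 2 starts of TET2, 1 of 2 of TET3, 1 of 1 of DNMT1, 2 of 6 of DNMT3A, 1 of 3 of TET1 and 0 of 1 of DNMT3B. The windows shown are of 2 genes that rose and 2 that fell, each at the start with the most matches (for DNMT3A, the upstream of the 2 overlapping windows that hold CACGTG), with the matches in capitals and the strand of the gene read 5′ to 3′.
TET2, rose, chr4:105145625-105145924, plus strand: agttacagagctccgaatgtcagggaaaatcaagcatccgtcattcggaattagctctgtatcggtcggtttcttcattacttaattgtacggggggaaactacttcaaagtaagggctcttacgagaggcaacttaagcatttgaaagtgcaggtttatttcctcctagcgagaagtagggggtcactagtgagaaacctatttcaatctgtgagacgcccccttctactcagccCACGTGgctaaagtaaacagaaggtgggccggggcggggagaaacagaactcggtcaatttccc
DNMT3A, rose, chr2:25252266-25252565, minus strand: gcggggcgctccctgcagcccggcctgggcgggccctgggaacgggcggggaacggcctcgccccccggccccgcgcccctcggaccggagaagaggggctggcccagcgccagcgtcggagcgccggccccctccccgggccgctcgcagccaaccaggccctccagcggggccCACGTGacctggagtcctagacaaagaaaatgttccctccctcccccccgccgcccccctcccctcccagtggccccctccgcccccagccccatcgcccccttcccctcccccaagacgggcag
TET3, fell, chr2:73984660-73984959, plus strand: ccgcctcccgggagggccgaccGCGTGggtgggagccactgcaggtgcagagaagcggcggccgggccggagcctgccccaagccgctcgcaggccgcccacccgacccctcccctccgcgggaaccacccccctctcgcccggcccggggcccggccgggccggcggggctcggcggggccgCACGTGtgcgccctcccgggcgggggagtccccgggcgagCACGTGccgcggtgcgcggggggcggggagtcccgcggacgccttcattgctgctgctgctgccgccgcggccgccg
DNMT1, fell, chr19:10194904-10195203, minus strand: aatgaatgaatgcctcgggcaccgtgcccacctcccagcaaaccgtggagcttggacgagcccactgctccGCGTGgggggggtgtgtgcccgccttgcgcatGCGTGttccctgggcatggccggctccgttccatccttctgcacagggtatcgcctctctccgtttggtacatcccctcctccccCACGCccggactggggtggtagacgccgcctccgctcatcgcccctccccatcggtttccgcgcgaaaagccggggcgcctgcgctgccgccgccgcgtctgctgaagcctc

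CACGTG began at -14 from the start of TET2, at -75 from that of DNMT3A and at -67 and -27 from that of TET3. The TET3 window also held GCGTG at -228, and that of DNMT1 held GCGTG or its complement at -179, -147 and -62. Both genes that rose and genes that fell thus carried these letters, and TET1, which rose, held GCGTG at 1 of its 3 starts and ACGTG at none. A match describes the sequence only, since binding was not measured and the counts do not tell which start was used.

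Most tested partners of the methyltransferases were lower, as DNMT1 was. Of 10 genes listed, 8 were tested, of which 7 were lower and 1 higher (edgeR, adjusted p under 0.05, beside 38.5% and 39.2% of all genes), and 6 were lower by at least 1.5-fold. Their median log2-fold change was -0.84. UHRF1, which binds hemimethylated DNA and brings DNMT1 to it, was at 83.3, 68.8 and 74.6 CPM under hypoxia and at 243, 243 and 230 CPM under normoxia, a log2-fold change of -1.66 (SE 0.065, edgeR adjusted p = 4.95e-13). This was a larger decrease than that of DNMT1, and their 95% intervals did not overlap. CDCA7, which recruits the remodeler HELLS to chromatin, changed by -1.52 and HELLS itself by -0.47 on the log2 scale. PCNA, the sliding clamp of replication, changed by -1.34, USP7, a deubiquitinase of UHRF1 and DNMT1, by -0.65, TRIM28 by -0.81 and LIG1 by -0.88. UHRF2, the paralog of UHRF1, was the only tested gene of the list that was higher, at 0.25 on the log2 scale (SE 0.065, edgeR adjusted p = 0.00228). ZFP57 and DNMT3L did not pass the filter on low counts.

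DNMT1 and UHRF1 are expressed mainly in cycling cells, so genes of S phase and proliferation were set beside them. All 20 were lower, each by at least 1.5-fold, where 22.4% of all genes tested were lower by that much. Their log2-fold changes ran from -1.63 for CCNB1, the mitotic cyclin B1, to -0.71 for TOP2A, with a median of -1.23. MKI67, the proliferation antigen, fell by 1.11 on the log2 scale, which is close to the value of DNMT1 (-1.12), and CCNA2 and E2F1 changed by -1.56 and -1.54. The summed level of the list was 2874, 2554 and 2747 CPM in hypoxia replicates 1 to 3 and 6148, 6405 and 5983 CPM in normoxia replicates 1 to 3. The part of proliferation in the decrease of DNMT1, DNMT3B or UHRF1 was not tested.

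Genes that act with the TET enzymes or in the repair that follows them moved in both directions. Of 17 listed, 15 were tested, of which 4 were higher, 8 lower and 3 did not pass (edgeR, adjusted p under 0.05), with a median log2-fold change of -0.25. The number called is near the share of all genes tested that were called (77.8%), so the count itself says little about these genes. TDG, the glycosylase that removes the most oxidized forms of 5-methylcytosine, was at 16.7, 17.4 and 15.6 CPM under hypoxia and at 62.1, 62.1 and 49.1 CPM under normoxia. Its log2-fold change of -1.80 (SE 0.090, edgeR adjusted p = 8.11e-12) was larger in size than that of any TET gene. Within the NEIL glycosylases, NEIL1 rose by 2.05 on the log2 scale and NEIL3 changed by -1.36 and NEIL2 by -0.49. Within the GADD45 genes, GADD45B rose by 1.97 and GADD45A changed by -1.28. GADD45G, with mean levels of 0.0218 CPM under hypoxia and 0.373 CPM under normoxia, was not tested.

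CXXC5, a CXXC-domain protein that binds CpG-rich DNA, showed the largest increase of this list, from 7.11 ± 1.01 to 39.1 ± 4.40 CPM (SD, n = 3), at 2.46 on the log2 scale (SE 0.11, edgeR adjusted p = 2.23e-12). Its relative CXXC4 did not pass the filter on low counts. OGT, the O-GlcNAc transferase that binds TET proteins, rose by 1.08 (SE 0.057). Of the later steps of base excision repair, POLB changed by -0.69 and LIG3 by -0.97, whereas APEX1 (-0.077, adjusted p = 0.198) and XRCC1 (0.028, adjusted p = 0.685 by edgeR) did not pass the threshold. SMUG1 (-0.039, adjusted p = 0.691 by edgeR) did not pass it either, HMCES changed by -0.93 and MBD4 by -0.25.

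Proteins that read the mark were examined next. Of 10 genes listed as readers of methylated CpG, 2 were higher and 6 lower (edgeR, adjusted p under 0.05), with a median of -0.31 on the log2 scale, again near the 77.8% of all genes. Of these, 1 was higher and 2 were lower by at least 1.5-fold, where 50.3% of all genes changed by that much. ZBTB4, a zinc-finger reader, rose by 1.22 and MBD3, a subunit of the NuRD complex whose methyl-CpG-binding domain does not bind methylated CpG selectively in mammals, changed by -0.83, beside UHRF1 above. ZBTB33 (0.084, adjusted p = 0.405 by edgeR) did not pass the threshold. ZBTB38 changed by -0.57. Of 6 genes that bind unmethylated CpG, 2 were higher, 3 lower and 1 did not pass, with a median of -0.14. This was also close to the share of all genes tested that were called (77.8%), so the count says little about these genes. With 1 library left out, the number lower ranged from 2 to 4. KMT2A and KDM2A rose by 0.43 and 0.26, and CXXC1, a subunit of histone H3K4 methyltransferase complexes, changed by -0.75 and FBXL19 by -0.30. The call of KMT2B (-0.15) was lost without hypoxia replicate 3 (-0.12, adjusted p = 0.121 by edgeR) and without normoxia replicate 1 (-0.14, adjusted p = 0.0897).

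2-Oxoglutarate is the cosubstrate of the TET enzymes, and succinate, fumarate and 2-hydroxyglutarate compete with it. Of 17 genes that make or use these metabolites, 4 were higher, 12 lower and 1 did not pass (edgeR, adjusted p under 0.05, beside 39.2% higher and 38.5% lower of all genes tested), with a median log2-fold change of -0.45. At least 1.5-fold changes were fewer, with 2 higher and 5 lower, beside 28% and 22.4% of all genes tested. D2HGDH, which oxidizes D-2-hydroxyglutarate, rose by 1.72 (10.1 ± 1.28 to 33.5 ± 1.12 CPM, SD, n = 3), and IDH1, the cytosolic isocitrate dehydrogenase, by 0.71. IDH2 (0.17, adjusted p = 0.00956 by edgeR) rose slightly, and its call was lost without hypoxia replicate 3 (0.15, adjusted p = 0.0531) or normoxia replicate 2 (0.13, adjusted p = 0.0649). IDH3A, a subunit of the mitochondrial NAD-dependent enzyme, changed by -1.80 and FH, the fumarase, by -1.10, with GOT2 at -0.81. Of the 4 subunits of succinate dehydrogenase, SDHA (-0.35), SDHB (-0.45) and SDHD (-0.37) fell and SDHC rose by 0.27.

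S-adenosylmethionine is the methyl donor of the DNMT enzymes. Of 13 genes of its cycle, 10 were in the table and 9 were tested, of which 2 were higher, 4 lower and 3 did not pass (edgeR, adjusted p under 0.05), with a median of -0.011. Of all genes tested, 77.8% were called, so these counts do not set the list apart. The number lower was 3 in 6 of 11 alternative fits, among them that with the replicate number as a block. MAT2A, which synthesizes the donor, was at 65.8, 55.6 and 61.0 CPM under hypoxia and at 260, 262 and 248 CPM under normoxia, a log2-fold change of -2.08 (SE 0.063, edgeR adjusted p = 3.07e-14). Its regulatory partner MAT2B did not pass the threshold (-0.011, adjusted p = 0.867). MTRR, the reductase of methionine synthase, changed by -1.17. AHCY, which clears S-adenosylhomocysteine, changed by -0.25 and AHCYL2 rose by 0.45.

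**Figure D4:**
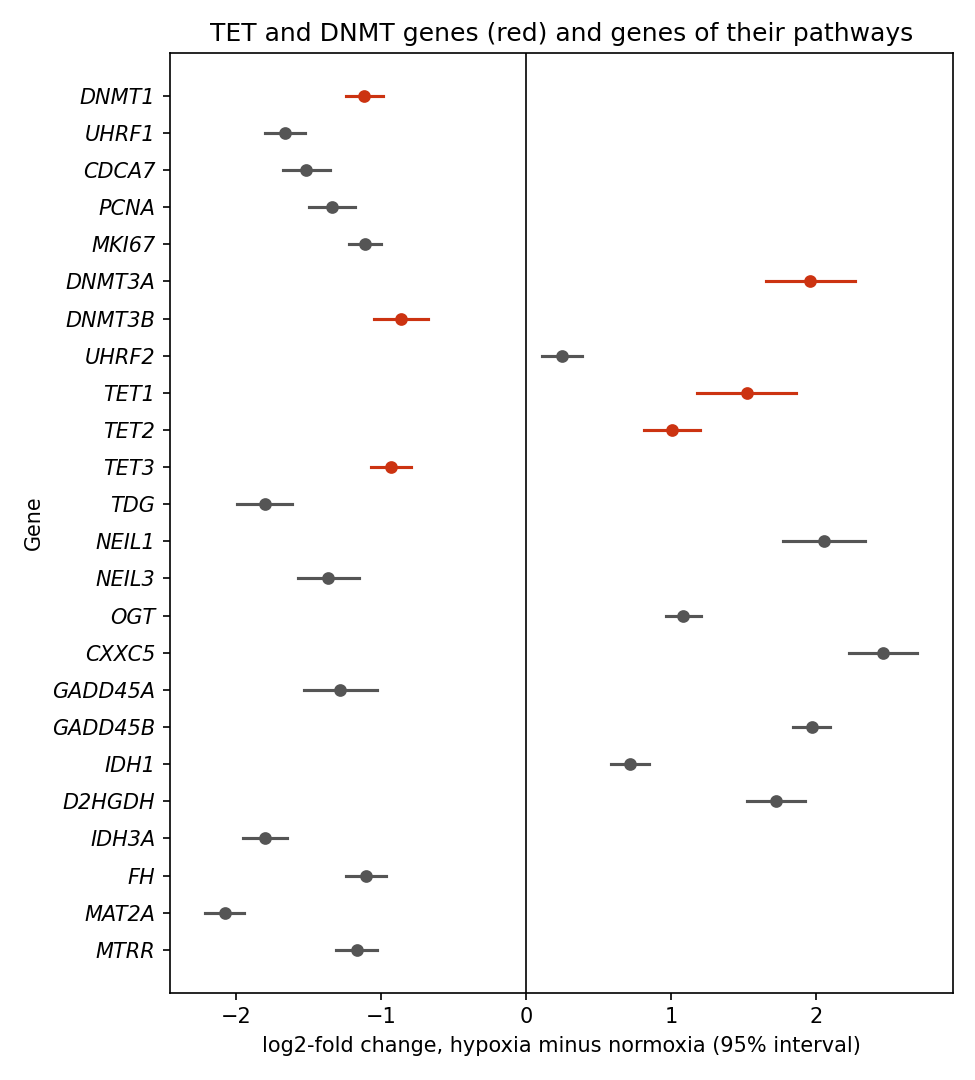
Log2-fold change (hypoxia minus normoxia) with its 95% interval from edgeR for the 6 genes (red) and selected genes of their pathways (grey). UHRF1, CDCA7, PCNA and MKI67 lie on the same side as DNMT1, and TDG and MAT2A lie further left at -1.80 and -2.08.

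Genes with the most similar profile were sought among genes with a mean of at least 1 CPM, by the root mean square difference of centred log2 CPM over the 6 libraries. The closest was MCM7 for DNMT1 (0.014), followed by IL27RA (0.015). For DNMT3B they were TLCD1 (0.031) and DHX36 (0.034), and for TET3 TPRKB (0.032) and XYLB (0.035). Those of the genes that rose were less close, namely NPTN-IT1 (0.051) and LPP (0.052) for TET2, ACTR3C (0.058) and LUCAT1 (0.065) for TET1, and KDM7A (0.092) and TUBA1A (0.10) for DNMT3A. Over 6 libraries in 2 conditions, this distance takes in the size of the change between conditions as well as the spread within them.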

How the data were processed

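RNA-seq libraries of SCC25 cells, 3 per condition, were grouped and numbered by their titles. The deposited counts are whole numbers of reads per gene, which the authors did not normalize. The authors also deposited FPKM for the same genes, and these follow from the counts, 1 length per gene and the column total for 21775 of 21776 genes and for all 6 genes described (relative error under 0.001%). The submitters' processing notes name the builds GRCm38 and mm10, which are mouse builds, although symbols and Entrez numbers are human. Aligner, annotation, counter and use of strand are not given in the sources used here. In GENCODE v29 exons of the 6 genes overlap other genes only for DNMT1, which shares 83 bases with S1PR2 on the same strand. The annotation columns of the count table were used only for Entrez numbers and coding type.

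Counts were fitted with edgeR 4.0.16 in R 4.3.3 (filterByExpr, TMM, quasi-likelihood F test with condition as the only term, Benjamini-Hochberg over 14255 genes, threshold 0.05). The standard error is the log2-fold change divided by the square root of F, and log2 CPM for profiles used a prior count of 2. With totals of 29637189 to 37278703 reads, counting error and library spread both enter the errors. Replicate pairs differed by more than sampling noise (chi-square per gene 5.11 to 11.5). In simulated counts for 3 libraries against 3 over 14214 genes, 200 genes were changed and all genes had the same dispersion. There edgeR found 181 of 197 tested changed genes, with 3.21% of its calls false. Far more genes were called in the real comparison (77.8%), so this rate of false calls need not hold for it.

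Alternatives were DESeq2 1.42.0 (size factors, Wald test), other count filters, a 1.5-fold threshold, a replicate block, each library left out, and shares from counts. Other gene lengths were a later addition, chosen with the data in view. The members and gene lists were chosen with earlier results of these data known. Named genes are the members, their family rows, up to 3 increases and 3 decreases per list with a mean of at least 1 CPM, 8 fixed genes and the 2 closest profiles per member. Other list members were named after their values were seen. Some genes that this rule names are not reported here.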

Additional observations from a re-analysis of the deposited data

How the results depend on the processing

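The 6 genes kept their direction and an adjusted p under 0.05 in all 66 alternative fits (11 per gene), with adjusted p-values of at most 9.17e-06. With 1 library left out, log2-fold changes ran from 1.38 to 1.68 for TET1, 0.87 to 1.07 for TET2, -0.98 to -0.89 for TET3, -1.18 to -1.07 for DNMT1, 1.78 to 2.12 for DNMT3A and -0.91 to -0.81 for DNMT3B, and the number of genes called from 10669 to 11390 against 11090. The filters moved the log2-fold changes of shared genes by a median of -0.041 (none) and 0.077 (at least 10 counts in every library), so changes of that size are not resolved. Among 46 other named genes, 6 of 506 results lost their call, 3 each for KMT2B and IDH2, and 0 reversed. With the second filter KMT2B was at -0.077 (adjusted p = 0.243 by edgeR), and without a filter IDH2 was at 0.13 (adjusted p = 0.0757).

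Without a filter, 2 partners of the methyltransferases (ZFP57 added) and 3 markers of other cell types (PECAM1 and VWF added) were higher, since more genes at low counts were tested. With the threshold of 1.5-fold, 7174 genes were called. The higher and lower counts at that threshold were 0 and 6 for the partners of the methyltransferases, 1 and 2 for readers of methylated CpG, 0 and 1 for readers of unmethylated CpG, 2 and 5 for the 2-oxoglutarate list, 1 and 2 for the S-adenosylmethionine cycle and 4 and 2 for squamous markers, beside 28% higher and 22.4% lower of all genes tested.

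The mean differences in the shares and in the ratio of the family sums kept their direction under the alternatives run, but their size depended on gene length. The share of DNMT3B overlapped between the conditions with either set of GENCODE v29 lengths and from counts without lengths. From counts without lengths the share of DNMT3A differed by 6.40 percentage points between the conditions, against 2.89. The ratio of the sums moved as well: with exonic bases of GENCODE v29 (added after the data had been seen) it was 5.31 in normoxia and 3.10 under hypoxia, against 10.8 and 5.99, and from counts without lengths the difference was -1.67 against -4.85.

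Equal replicate numbers did not pair the libraries, with correlations of deviations of 0.018, -0.069 and 0.0012 for numbers 1 to 3. With the number as a replicate block, 10875 genes were called and no call of the 6 genes changed, while 3 rather than 4 genes of the S-adenosylmethionine cycle were lower. DNMT3L, ZFP57, CXXC4, GADD45G and MAT1A did not pass the filter on low counts, and their levels rest on at most 20 reads in any library.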

Other observations

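Of 11 squamous epithelial markers tested, 6 were higher and 4 lower under hypoxia (edgeR, adjusted p under 0.05, beside 39.2% higher and 38.5% lower of all genes tested). CDH1, the E-cadherin gene, rose from 188 ± 10.9 to 479 ± 4.85 CPM (SD, n = 3), DSG3, a desmosomal cadherin, by 1.35 and KRT17 by 1.06 on the log2 scale. KRT6A, a keratin of activated epidermis, was at 18.7, 18.8 and 12.0 CPM in normoxia replicates 1 to 3 and at 0.590, 0.753 and 1.51 CPM in hypoxia replicates 1 to 3, a log2-fold change of -4.12. SFN and EPCAM changed by -0.80 and -0.35.

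Of 10 markers of other cell types, 7 did not pass the filter on low counts, with at most 10 reads in any library, among them PTPRC and CD3E of leukocytes and PECAM1 and VWF of endothelium. COL1A1, a collagen of fibroblasts, was higher, at 18.0 ± 2.02 CPM under hypoxia and 3.76 ± 1.17 CPM under normoxia (SD, n = 3), while COL1A2, which encodes the partner chain, was at 0.180 and 0.0832 CPM and did not pass the filter on low counts. PDGFRB, a receptor of stromal cells, was at 0.638 and 0.322 CPM (log2-fold change 0.96, edgeR adjusted p = 0.0507), without overlap between the conditions. The list as a whole summed to 48.9, 50.8 and 51.3 CPM in hypoxia replicates 1 to 3 and to 36.7, 35.2 and 40.0 CPM in normoxia replicates 1 to 3, of which CD68 was the most abundant gene.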
